A study of Mus musculus with 1187 samples.

Results

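The platelet-derived growth factor (PDGF) ligand family of the mouse has 4 genes, Pdgfa, Pdgfb, Pdgfc and Pdgfd, and they were taken by symbol from a table of 46517 genes measured in single endothelial cells of the brain. Their transcripts were described over all 1187 cells, plate by plate, and in cells that carried transcripts of arteries (Bmx, Hey1), of veins (Nr2f2, Il1r1) or of angiogenic endothelium (Angpt2, Apln). The cells came from 3-month-old C57BL/6 mice that carried the ret allele of Pdgfb, which lacks the retention motif of the protein: 597 cells were labelled Pdgfb ret/ret, the pericyte-deficient genotype, and 590 Pdgfb ret/+, the heterozygous control. All mice also carried 2 reporters, Cldn5-GFP for endothelium and Cspg4-DsRed for pericytes and oligodendrocyte precursors, and cells that were positive for GFP and negative for DsRed were sorted into 384-well plates and sequenced by Smart-seq2, a full-length cDNA method with 1 library per cell and no molecular identifiers. No animal was named, and the columns gave a plate and a well but no genotype, so ret/ret cells could not be set against ret/+ cells. All values below are of both genotypes together, in 1 pooled sample, without a test.

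PDGF ligands are secreted dimers that signal through the receptor tyrosine kinases PDGFRα and PDGFRβ. PDGF-B made by endothelium recruits pericytes, which carry PDGFRβ, and its basic C-terminal stretch, the retention motif, binds heparan sulfate and keeps the ligand near the cell that made it. PDGF-A signals through PDGFRα and has a long splice form with a similar basic tail, whereas PDGF-C and PDGF-D carry a CUB domain that proteases must remove before the factor can bind its receptor.

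The part of the gene that the ret allele concerns is shown together with its counterpart in Pdgfa, because gene counts cannot tell transcripts that contain it from those that do not. Both sequences are coding sequence of the last coding exon in GENCODE M21 transcripts (GRCm38), on the minus strand, with in-frame codons for lysine or arginine in capitals. Pdgfb exon 6 lies at chr15:79997583-79997704 and Pdgfa exon 6 at chr5:138978638-138978690.
Pdgfb: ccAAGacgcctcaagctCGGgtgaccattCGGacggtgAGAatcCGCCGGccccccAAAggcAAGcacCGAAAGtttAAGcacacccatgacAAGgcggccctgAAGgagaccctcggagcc
Pdgfa: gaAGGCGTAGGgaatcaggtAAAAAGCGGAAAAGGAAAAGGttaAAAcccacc
Lysine and arginine took 13 of 40 whole codons of the Pdgfb exon (32.5%), against 29 of 201 codons upstream of it (14.4%). In the Pdgfa exon it was 11 of 17 codons (64.7%), against 30 of 194 upstream (15.5%). Of the 4 protein-coding Pdgfa transcripts in the annotation, 1 contains this exon.

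All 4 members share a growth factor core. The stretches below, of 33 bases each, show part of the core and how the pairs differ, with cysteine codons in capitals. They were found by the residue pattern C..V.RC.G.C, where a dot is any residue. The pattern fixes 3 cysteines and part of the identity between the 4 genes in advance. They lie at chr5:138986244-138986276 in Pdgfa and chr15:80001736-80001768 in Pdgfb (minus strand, exon 4 of each), at chr3:81209160-81209192 in Pdgfc (plus strand, exon 5) and at chr9:6359816-6359848 in Pdgfd (plus strand, exon 6).
Pdgfa: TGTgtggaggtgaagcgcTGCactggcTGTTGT
Pdgfb: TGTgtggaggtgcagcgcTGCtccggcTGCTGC
Pdgfc: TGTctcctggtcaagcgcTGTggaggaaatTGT
Pdgfd: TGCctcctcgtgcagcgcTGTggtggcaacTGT
Pdgfa and Pdgfb had 4 cysteine codons in this window and were identical at 28 of 33 bases (84.8%). Pdgfc and Pdgfd had 3 and were identical at 26 bases (78.8%), while between the pairs identity ran from 18 to 21 bases. Over the whole coding sequence the long form of Pdgfa has 211 codons, Pdgfb 241, Pdgfc 345 and Pdgfd 364.

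Depth ran from 100779 to 584112 gene-assigned reads per cell (median 360947), and plates 521, 522, 523 and 524 held 300, 290, 285 and 312 cells. Brain endothelial markers were high on every plate: the 10 listed genes summed to between 18282 and 20762 CPM, the usual scaling of read counts to the total of the cells summed. Pericyte markers summed to 72.4 CPM (22.4 to 147.8 over plates), smooth muscle markers to 13.1 CPM and fibroblast markers to 26.4 CPM, and in 19 cells some type other than endothelium had 3 or more of its markers at 100 CPM or above. Those 19 cells held 38 of the 5218 Pdgfa reads, 707 of the 79039 Pdgfb reads and 457 of the 53807 Pdgfd reads.

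Pdgfb and Pdgfd were the abundant ligand transcripts of these cells, Pdgfa was present in a minority, and Pdgfc was close to absent. Levels are CPM of reads summed over cells, with 95% exact Poisson intervals that cover counting error only, and the range over the 4 plates is the wider guide to error. Shares are of cells with at least 1 read after each cell was thinned to 100000 reads, with exact Clopper-Pearson intervals. These intervals treat cells as independent, although cells share plates and no animal was named, and they leave out the spread between plates.

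Pdgfb (chromosome 15, 79995874 to 80014977, minus strand) had 214.8, 165.2, 205.9 and 167.7 CPM on plates 521, 522, 523 and 524. Its share of cells was 72.7% on plate 521 and 53.5% to 59.3% on the other plates. Plate 521 was thus the highest by level and by share, while plate 523, close to it by level, had a share among the lower ones.

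Pdgfd (chromosome 9, 6168584 to 6378850, plus strand), the ligand that binds PDGFRβ after cleavage, had 155.4, 108.1, 131.4 and 117.2 CPM on the same plates, 128.4 CPM in all (127.4 to 129.5). A read was found in 40.8% of cells (38.0% to 43.6%) and, without thinning, in 44.9%. By plate the share was 49.3%, 41.0%, 35.1% and 37.5%, so plate 521 was again the highest.

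Pdgfa (chromosome 5, 138976014 to 138997370, minus strand) had 10.4, 12.2, 9.96 and 17.1 CPM on plates 521 to 524 and 12.5 CPM over all cells (12.1 to 12.8). A read was found in 96 cells, 8.09% (6.60% to 9.79%), and in 114 cells (9.60%) without thinning. Plate 524 was the highest by level and by share, with 10.6% of cells against 7.02% to 7.33% on the other 3 plates.

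Pdgfc (chromosome 3, 81036416 to 81214040, plus strand) had 90 reads in 5 cells, 0.215 CPM (0.173 to 0.264). Of these reads 55 came from 1 angiogenic-marker cell (191.9 CPM) and 32 from 1 cell with none of the 6 markers (100.8 CPM), both on plate 521, and the other 3 cells had 1 read each. Without plate 521 the level was 0.00644 CPM. Plate 524 had 0 Pdgfc reads in 312 cells, where 3 reads would give 0.0275 CPM. No class ratio is given for Pdgfc.

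Compared per kilobase of annotated exon, Pdgfb stood at 45.3 CPM per kb and Pdgfd at 40.7, Pdgfa at 3.99 and Pdgfc at 0.0422. The length is that of all annotated exons of a gene merged, so it allows only roughly for the length of the transcripts present. Pdgfb was above Pdgfd on each plate, with 51.6, 39.7, 49.5 and 40.3 CPM per kb for Pdgfb and 49.3, 34.3, 41.7 and 37.2 for Pdgfd. Another choice of length could change this order, which was not tested. The plate ranges of the pair overlapped, whereas those of Pdgfa (3.19 to 5.49) lay below both and above Pdgfc. Between the highest and the lowest plate, with 1 CPM added to both, Pdgfa differed 1.65-fold, Pdgfd 1.43-fold and Pdgfb 1.30-fold, none of them past 2-fold, beside 20.5% of 11461 genes that were. The median gene differed 1.51-fold.

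Within the population the ligands were unevenly spread. The median cell had 58.8 CPM of Pdgfb and 0 of the other 3, while the highest cells reached 1781 CPM of Pdgfb, 2005 of Pdgfd and 535.9 of Pdgfa. Among cells with a read the median level was 244.9 CPM for Pdgfb, 204.6 for Pdgfd and 71.7 for Pdgfa. The 119 cells highest in Pdgfd held 56.7% of its summed CPM, and the 119 highest in Pdgfb held 39.6%.

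**Figure D1:**
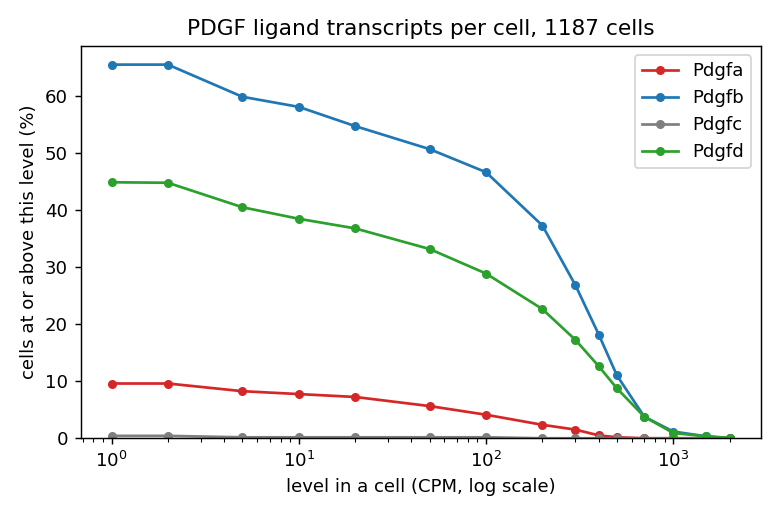
Share of the 1187 cells (vertical axis, percent) at or above a given ligand level in the cell (horizontal axis, CPM, log scale), 1 line per ligand. At 100 CPM the lines stand at 46.7% of cells for Pdgfb, 28.9% for Pdgfd, 4.13% for Pdgfa and 0.168% for Pdgfc.

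Most cells had a read of 1 ligand or of none. At the fixed depth 364 cells had a read of Pdgfb alone, 285 of Pdgfb with Pdgfd, 150 of Pdgfd alone and 290 of none. Pdgfa was read alone in 16 cells, with Pdgfb in 31, with Pdgfd in 12 and with both in 37. No cell had all 4, and by a floor of 3 counts 0 of 1187 cells allows a share of up to 0.253%.

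Cells with a Pdgfb read had a Pdgfd read in 44.8% of cases (41.2% to 48.6%), against 34.5% of cells without a Pdgfb read (30.2% to 39.0%). The share was higher with Pdgfb on each of the 4 plates, for example 53.2% against 39.0% on plate 521 and 37.9% against 31.5% on plate 523. Cells with a Pdgfb read also had more genes detected (median 4709 against 4194) at like depth (364498 against 356610 reads), and the part of this difference in the shared reads was not tested. Levels of the pair were hardly related across cells: the mean of the within-plate Pearson correlations of log2(CPM + 1) was 0.07 for Pdgfb with Pdgfd, 0.05 for Pdgfa with Pdgfb and 0.04 for Pdgfa with Pdgfd. In sparse counts so weak a correlation is no finding.

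**Figure D2:**
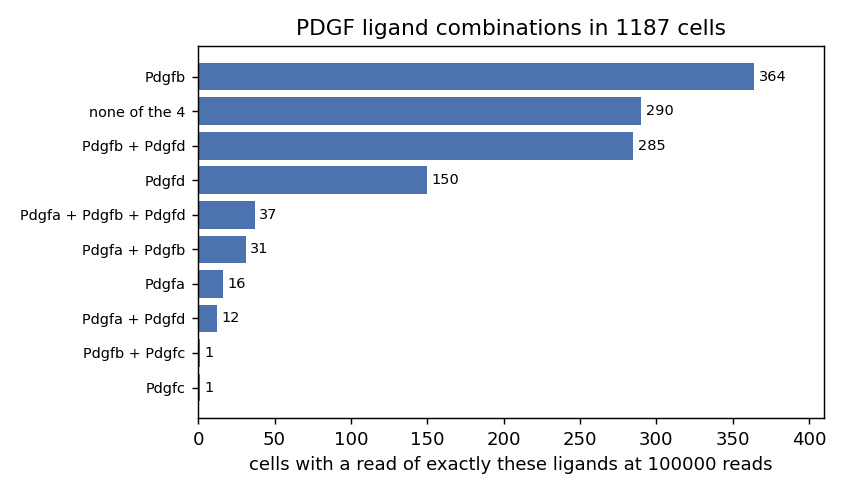
Number of cells (horizontal axis) whose reads, after thinning to 100000 per cell, included exactly the ligands named at the left. Pdgfb alone was the most frequent state, with 364 cells, and 290 cells had none of the 4.

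To place the ligands along the vessel tree, cells were called arterial-marker, venous-marker or angiogenic-marker when either gene of the pair was at 20 CPM or more. Bmx is a kinase and Hey1 a Notch target of arterial endothelium, Nr2f2 the transcription factor of venous fate and Il1r1 the interleukin-1 receptor, and Angpt2 and Apln mark sprouting endothelium. These classes held 378, 251 and 360 cells, and 405 cells had none of the 6 genes at that level. The classes overlapped, with 38 cells both arterial and venous, 91 both arterial and angiogenic and 93 both venous and angiogenic. Their share of a plate was even for arterial-marker cells (29.8% to 35.3%), but angiogenic-marker cells made up 58.7%, 45.9%, 9.12% and 8.01% of plates 521 to 524 and the cells with none 11.7%, 23.1%, 49.1% and 52.2%. Pooled ratios therefore mix plates unequally, and the values within plates are given beside them.

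Further markers of each vessel type were counted in the classes. All 10 further arterial genes were past 2-fold higher in arterial-marker cells than in cells with none, such as Gkn3, a marker of brain arteries (291.0 against 20.5 CPM), and the elastic fibre gene Fbln5 (135.4 against 1.35 CPM), and each was higher on at least 3 plates. Of the 9 further venous genes at 5 CPM or more, 6 were past 2-fold higher in venous-marker cells, 5 of them on 4 plates and Ackr1 on 2. Of the 7 angiogenic ones 5 were so in angiogenic-marker cells, but with less support within plates: Adm and Lamb1 were higher on 4 plates, Nid2 and Mcam on 3 and Trp53i11 on 2. Trp53i11 had a pooled log2 ratio of 3.24 but −1.94 to 1.68 over plates. The classes overlap, and the lists were not particular to their own class. In venous-marker cells 5 of 9 arterial genes were also past 2-fold higher and 3 lower, in angiogenic-marker cells 4 of 9 venous genes, and in both arterial- and venous-marker cells 4 of 7 angiogenic genes. Of all genes at 5 CPM or more, 4.55%, 4.63% and 4.51% were past 2-fold higher in arterial-, venous- and angiogenic-marker cells. Past 2-fold lower were 2.09%, 2.99% and 3.7%. Median depth was 365644, 360584 and 360309 reads in arterial-, venous- and angiogenic-marker cells, against 355359 in cells with none, and the classes had more genes detected, with medians of 4702, 4943 and 4955 against 4146.

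Pdgfa was the 1 ligand whose level was past 2-fold different between a class and the cells with none. In arterial-marker cells it had 17.3, 26.1, 16.1 and 37.9 CPM on plates 521 to 524, against 1.53, 9.73, 3.38 and 5.13 CPM in cells with none of the markers. The plate ranges of the 2 classes did not overlap. The values in cells with none rest on few cells. Without thinning, 1 of 35, 5 of 67, 5 of 140 and 8 of 163 such cells had a Pdgfa read on plates 521 to 524. The 1 cell of plate 521 had 19 reads, and the largest within-plate ratio below depends on it. Pooled, this was 24.2 CPM (23.4 to 25.0) against 4.94 CPM (4.58 to 5.32), a log2 ratio of 2.08 on summed CPM with 1 CPM added, 4.24-fold, and the within-plate log2 ratios ran from 1.34 to 2.86. Ratios past 2-fold are called higher or lower here, without a test, and 4.55% of 11902 genes at 5 CPM or more were that much higher in arterial-marker cells and 2.09% lower. A Pdgfa read was found in 13.5% of arterial-marker cells (10.2% to 17.4%), against 4.44% of cells with none (2.66% to 6.93%); without thinning it was 15.9% against 4.69%. By plate the shares were 10.4%, 14.3%, 9.09% and 20.4%, against 2.86%, 7.46%, 2.86% and 4.91%, again without overlap.

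In venous-marker cells Pdgfa had 13.3, 6.67, 22.8 and 22.9 CPM on plates 521 to 524, against the same 1.53, 9.73, 3.38 and 5.13 CPM in cells with none. It was higher on 3 plates and lower on plate 522, with log2 ratios of 2.50, −0.48, 2.44 and 1.96. The ratio of plate 521 again depends on 1 cell with a read among its cells with none. Pooled it stood at 15.0 CPM (14.2 to 15.8) against 4.94 CPM, a log2 ratio of 1.43, beside 4.63% of 11892 genes past 2-fold higher and 2.99% lower. A read was found in 10.8% of venous-marker cells (7.21% to 15.3%), against 4.44%.

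In angiogenic-marker cells Pdgfa had 2.34, 1.03, 14.2 and 19.5 CPM on plates 521 to 524, against 1.53, 9.73, 3.38 and 5.13 CPM in cells with none. Plates 523 and 524 held 26 and 25 angiogenic-marker cells, and on plate 523 all 132 of its reads in them came from 1 cell. The pooled log2 ratio was −0.27, with −2.41 on plate 522 and 0.40 to 1.80 on the other 3, so no direction held across plates. In this comparison 4.51% of 11826 genes at 5 CPM or more in either class were past 2-fold higher and 3.7% lower. Pdgfa is not among these genes, since its pooled level was 3.91 CPM in angiogenic-marker cells and 4.94 CPM in cells with none. No PDGF ligand was past 2-fold with the classes as defined. Pooled, Pdgfa was past 2-fold lower, at −1.34, where both Angpt2 and Apln were asked for, and at −1.52 in cells with angiogenic markers only. The latter had 0.731, 0.807, 0 and 7.47 CPM on plates 521 to 524, so plate 524 went the other way. Their pooled level was 1.07 CPM, with a read in 2.09% of them, so both sides were under 5 CPM. For cells with both markers no values by plate are given, and Apln itself had only 0.00972 and 3.78 CPM on plates 523 and 524.

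**Figure D3:**
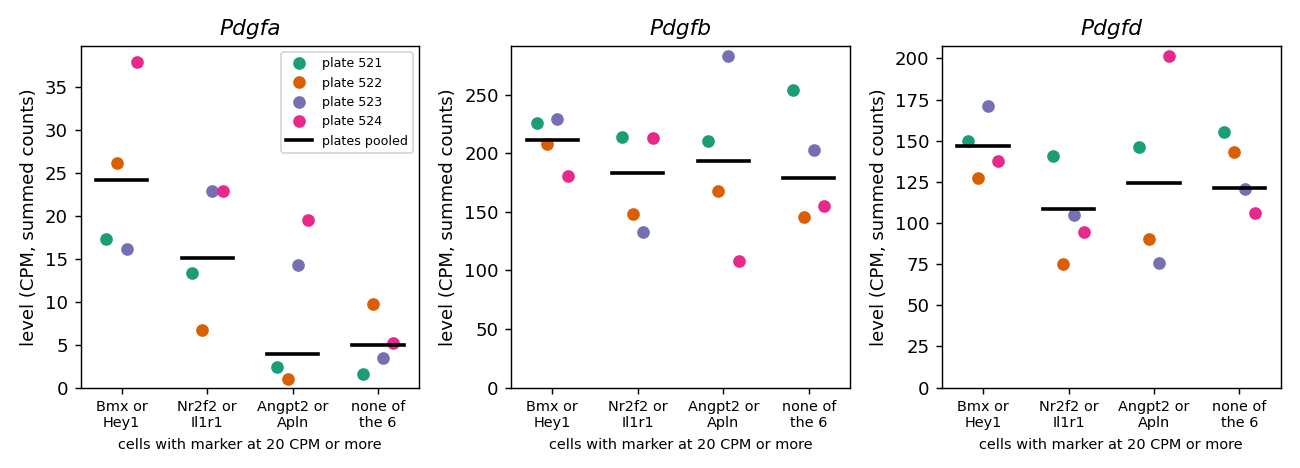
Level of Pdgfa, Pdgfb and Pdgfd (vertical axes, CPM of summed counts) in cells with arterial (Bmx or Hey1), venous (Nr2f2 or Il1r1) or angiogenic (Angpt2 or Apln) transcripts and in cells with none. Coloured points are the 4 plates and black bars the plates pooled; Pdgfa in arterial-marker cells lay between 16.1 and 37.9 CPM, above its 1.53 to 9.73 CPM in cells with none, while Pdgfb and Pdgfd overlapped between all classes.

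Cells that belonged to 1 class alone were then compared with each other. The 264 cells with arterial markers only had 30.9, 45.0, 13.6 and 34.9 CPM on plates 521 to 524, against 0.731, 0.807, 0 and 7.47 CPM in the 191 cells with angiogenic markers only. The 135 cells with venous markers only had 28.4, 14.9, 25.2 and 18.1 CPM. Arterial-only cells were above angiogenic-only cells on each plate (pooled 29.4 against 1.07 CPM), and so were venous-only cells. Arterial-only cells were above venous-only cells on 3 plates and below them on plate 523. Angiogenic-only cells numbered 17 and 11 on plates 523 and 524, so the value of 0 on plate 523 rests on few cells.

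Pooled over plates, Pdgfa was highest where the arterial pair itself was highest. It stood at 6.82 CPM in the 807 cells with Bmx and Hey1 summing to under 20 CPM, and 12.0, 8.53, 24.1 and 50.7 CPM where the sum was 20 to 100, 100 to 300, 300 to 1000 and 1000 CPM or more. The value of the bin of 20 to 100 CPM rests on 3 of 48 cells with a read after thinning, and the 2 plates with at least 10 such cells had 0.202 and 2.97 CPM. The top bin had 20.2 to 95.0 CPM over plates, above the 5.87 to 7.60 CPM of the lowest bin. Its range overlapped the 13.5 to 38.8 CPM of the bin of 300 to 1000 CPM, and 16 of its 74 cells had a read after thinning. Along the sum of Angpt2 and Apln, Pdgfa was at 16.1, 17.8, 8.22, 1.85 and 0.997 CPM in the same bins, with 121 cells in the highest. The 17.8 and 8.22 CPM rest on 3 and 2 cells with a read after thinning. Along Nr2f2 and Il1r1 it was at 11.7, 6.78, 21.1, 18.9 and 1.79 CPM, and the last of these bins held only 12 cells. Pdgfd, by comparison, was at 119.0, 100.4, 171.4, 121.0 and 211.6 CPM along Bmx and Hey1, and Pdgfb at 177.2, 222.3, 201.6, 207.0 and 231.7 CPM. For Pdgfd the top bin (171.7 to 261.1 CPM over plates) lay above the lowest (99.5 to 156.4 CPM), while for Pdgfb the plate ranges overlapped.

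**Figure D4:**
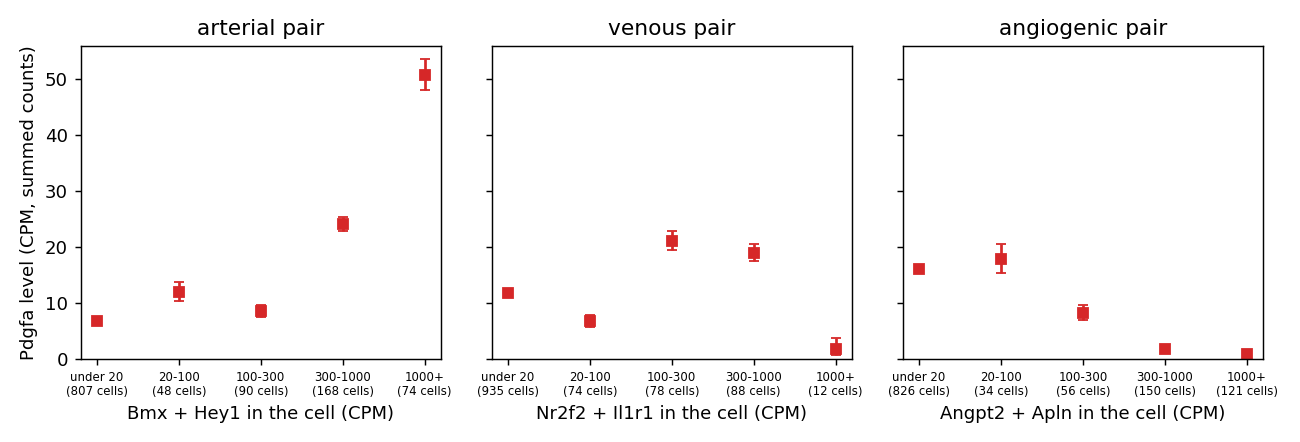
Pdgfa level (vertical axis, CPM of summed counts, bars are 95% exact Poisson intervals for counting error only) in cells binned by the summed level of the arterial, venous or angiogenic marker pair (horizontal axes, CPM, cells per bin in brackets). The arterial panel has its highest value, 50.7 CPM, in the bin of 1000 CPM or more, and the angiogenic panel its lowest, 0.997 CPM.

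Cells of larger arteries express elastic fibre and matrix genes, and a split of the arterial-marker cells by Eln, Fbln5 or Mgp at 20 CPM or more was made after seeing the data. The 74 arterial-marker cells with such a gene had 68.6, 113.1, 34.3 and 77.8 CPM of Pdgfa on plates 521 to 524, against 3.56, 5.88, 12.6 and 26.9 CPM in the 304 arterial-marker cells without. Each plate was higher with the matrix genes, and the plate ranges did not overlap. Pooled it was 73.9 CPM (70.7 to 77.3) against 12.1 CPM (11.4 to 12.8), a log2 ratio of 2.52. Within plates 521 to 524 the log2 ratios were 3.93, 4.05, 1.38 and 1.50, with 22, 17, 15 and 20 arterial-marker cells with matrix genes. A read was found in 37.8% of the cells with matrix genes (28 cells), against 7.57% of those without (23 cells). By plate the shares without matrix genes were 4.76%, 6.76%, 5.48% and 13.7% of 84, 74, 73 and 73 cells. The larger ratios of plates 521 and 522 thus rest on few cells with a read. The 74 arterial-marker cells with matrix genes were 6.23% of all cells and held 37.8% of all Pdgfa reads. A further 34 cells, outside the arterial-marker class, had Eln, Fbln5 or Mgp at that level. Their Pdgfa level was 26.5 CPM, above the 12.1 CPM of arterial-marker cells without matrix genes, and 6 of them had a read after thinning.

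Transcripts of other cell types were measured beside this split. The 6 fibroblast markers summed to 282.3 CPM in the arterial-marker cells with matrix genes, against 8.58 CPM in those without. With matrix genes they summed to 495.5, 0.173, 653.8 and 0.136 CPM on plates 521 to 524, beside 68.6, 113.1, 34.3 and 77.8 CPM of Pdgfa. Of the 74 cells, 2 had 3 fibroblast markers at 100 CPM or more. The 6 smooth muscle markers summed to 19.8 CPM against 14.5 CPM, with no cell at 3 markers in either group, and the 9 pericyte markers to 177.8 against 35.4 CPM, with 2 cells at 3 markers. With matrix genes the pericyte sum was 151.4 CPM on plate 521, 20.1 CPM on plate 522, 610.5 CPM on plate 523 and 19.4 CPM on plate 524. The part of these cell types in the Pdgfa difference was not tested. Over all cells, fibroblast markers summed to 7.31 CPM in cells with a Pdgfa read, against 28.1 CPM in cells without. Smooth muscle markers summed to 14.1 against 13.0 CPM and pericyte markers to 65.8 against 73.0 CPM. Fibroblast markers summed to 48.9, 4.44, 42.3 and 8.98 CPM in all cells of plates 521 to 524. The relation of these sums to the split was not tested. The gene 6330403L08Rik runs antisense to Pdgfa and shares exon positions with it, and since the sources used here do not give the treatment of strand, their reads cannot be told apart there. It had 1014 reads in all, with 2.06 CPM in arterial-marker cells against 3.56 CPM in cells with none, and 5.18 CPM in arterial-marker cells with matrix genes against 1.31 CPM in those without. Its part in the Pdgfa values was not tested.

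Pdgfd showed a smaller difference in the same split. It had 288.4, 154.7, 220.1 and 193.9 CPM in arterial-marker cells with matrix genes, against 112.4, 121.0, 161.4 and 122.1 CPM in those without. It was higher with matrix genes on each of the 4 plates, although the ranges overlapped, and pooled it stood at 219.6 against 129.0 CPM, 1.70-fold. Pdgfb had 183.8, 226.1, 331.4 and 271.3 CPM, against 237.2, 203.9, 209.1 and 156.2 CPM, and plate 521 went the other way.

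**Figure D5:**
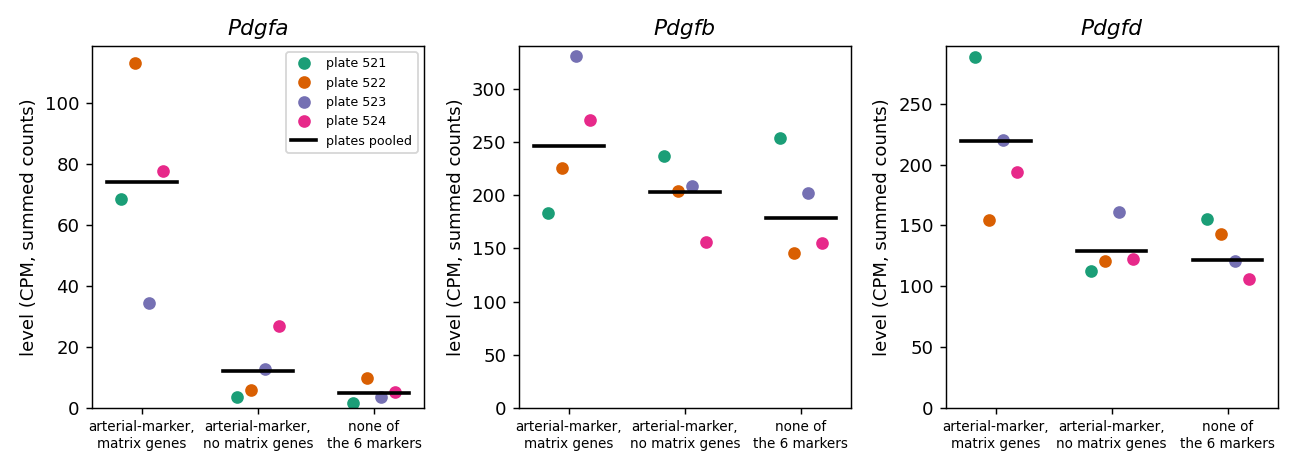
Level of Pdgfa, Pdgfb and Pdgfd (vertical axes, CPM of summed counts) in arterial-marker cells with Eln, Fbln5 or Mgp at 20 CPM or more, in arterial-marker cells without, and in cells with none of the 6 markers; points are plates and bars the plates pooled. Pdgfa lay between 34.3 and 113.1 CPM in the cells with matrix genes, above the 3.56 to 26.9 CPM of those without.

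Pdgfb varied little between the classes. In arterial-marker cells it had 225.9, 208.1, 228.9 and 181.0 CPM on plates 521 to 524, against 254.3, 145.4, 202.5 and 154.9 CPM in cells with none, and plate 521 went against the other 3. The pooled values were 211.3 CPM in arterial-marker, 193.4 in angiogenic-marker and 183.4 in venous-marker cells, against 179.1 CPM in cells with none. The pooled log2 ratios were 0.24, 0.11 and 0.03 in that order, and all 3 had plates on both sides of 0. Neighbours in this order did not differ beyond the spread between plates. Pooled, a Pdgfb read was found in 69.3% of arterial-marker, 66.1% of angiogenic-marker and 64.5% of venous-marker cells, against 51.6% of cells with none. On plates 521 to 524, cells with none had shares of 71.4%, 49.3%, 52.1% and 47.9%. Arterial-marker cells had 75.5%, 75.8%, 67.0% and 58.1%, higher on each plate. Angiogenic-marker cells had 73.9%, 60.9%, 61.5% and 44.0%, lower on plate 524. Venous-marker cells had 75.6%, 55.1%, 47.6% and 72.0%, lower on plate 523. Pooled shares and levels did not give the same picture, and the classes also had more genes detected.

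Pdgfd also stayed within 2-fold in every class. It had 149.7, 127.4, 170.9 and 137.5 CPM in arterial-marker cells, against 155.3, 142.9, 120.7 and 105.8 CPM in cells with none, higher on plates 523 and 524. In venous-marker cells it had 140.6, 75.3, 104.9 and 94.7 CPM and was lower than in cells with none on each of the 4 plates, by 0.91 on the log2 scale on plate 522 and by 0.14 to 0.20 on the others. Pooled, it stood at 146.7 CPM in arterial-marker, 124.4 in angiogenic-marker and 108.5 in venous-marker cells, against 121.5 CPM in cells with none (log2 ratios 0.27, 0.03 and −0.16). The plate ranges of these classes overlapped. Pooled, a Pdgfd read was found in 49.5% of arterial-marker, 46.4% of angiogenic-marker and 41.4% of venous-marker cells, against 32.6% of cells with none. On plates 521 to 524, cells with none had shares of 40.0%, 34.3%, 31.4% and 31.3%. Arterial-marker cells (52.8%, 50.5%, 44.3% and 49.5%) and angiogenic-marker cells (51.1%, 42.1%, 38.5% and 44.0%) were higher on each plate. Venous-marker cells had 50.0%, 40.6%, 28.6% and 38.0%, lower on plate 523.

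Seen from the ligand, cells with a Pdgfa read were rich in arterial transcripts. The 10 further arterial markers summed to 1378 CPM in the 96 cells with a Pdgfa read (1047 to 2033 over plates), against 345.4 CPM in cells without (311.8 to 382.5). The 10 capillary markers summed to 6639 CPM with a Pdgfa read, against 9617 CPM without, lower on each of the 4 plates. Of the 96 cells, 51 were arterial-marker cells (53.1%, where these made up 31.8% of all cells). Venous-marker cells numbered 27 (28.1%, of 21.1%) and angiogenic-marker cells 14 (14.6%, of 30.3%), and the classes overlap. The 10 further venous markers summed to 2527 CPM with a Pdgfa read, against 2082 CPM without, higher on 3 plates. Cells with a Pdgfd read also had more of the arterial markers, 582.5 CPM against 322.3 CPM, on each of the 4 plates. For Pdgfb it was 487.4 against 340.7 CPM, higher on 3 plates.

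No gene followed a ligand closely across cells. Among 10376 genes with a read in at least 10% of cells of every plate, the highest mean within-plate correlations were those of Pdgfa with the axon guidance gene Ntn1 (0.29) and with the alkaline phosphatase Alpl (0.27), of Pdgfb with the endothelin gene Edn1 (0.20) and of Pdgfd with B230206H07Rik (0.15). None reached 0.3, the value used for calling a gene alike.

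The receptors of these ligands and their listed partners were measured in the same cells. Pdgfra had 3.97 CPM and Pdgfrb 1.09 CPM. Nrp1, a co-receptor for several growth factors, had 412.5 CPM and the phosphatase Ptprj 38.8 CPM. Lrp1, a receptor of the lipoprotein family, had 6.78 CPM and the receptor-like Pdgfrl 2.06 CPM. Of 7 listed receptors and partners, 4 were at 5 CPM or more in the arterial comparison and none was past 2-fold, 4 in the venous one with 1 higher and 0 lower, and 5 in the angiogenic one with 2 higher and 2 lower. Of all genes at that level, 4.55%, 4.63% and 4.51% were past 2-fold higher in these comparisons, and 2.09%, 2.99% and 3.7% lower. The angiogenic ones were Pdgfra and Nrp2, higher, and Lrp1 and Ptprj, lower. Each had plates on both sides of 0, with log2 ratios of −1.80 to 3.70, −0.07 to 1.82, −3.03 to 2.56 and −5.50 to 3.19. The venous one was Nrp2, a neuropilin of veins and lymphatics, higher on 4 of 4 plates, with 260.1 CPM in venous-marker cells against 66.7 CPM in cells with none (log2 ratio 1.95, 0.87 to 2.25 over plates).

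Enzymes that process the ligands were measured as well. Furin, the proprotein convertase that cleaves PDGF-A and PDGF-B, had 48.4 CPM, Pcsk7 of the same family 52.0 CPM and Plat, the tissue plasminogen activator that cleaves the CUB domain off PDGF-C, 241.6 CPM. Plau, the urokinase reported to activate PDGF-D, had 0.554 CPM. Of 8 listed enzymes, 5 were at 5 CPM or more in the arterial comparison and 1 was past 2-fold higher: the convertase Pcsk5 had 12.4 CPM in arterial-marker cells against 0.218 CPM in cells with none, higher on 4 of 4 plates. None was past 2-fold among the 4 measured in the venous and the 3 in the angiogenic comparison. Of all genes measured in the arterial, venous and angiogenic comparisons, 4.55%, 4.63% and 4.51% were past 2-fold higher, and 2.09%, 2.99% and 3.7% lower. Among so few enzymes, none past 2-fold is near these shares.

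The heparan sulfate proteins and enzymes to which the retention motif relates ran from 0.582 CPM (the glypican Gpc1) to 413.6 CPM. Agrn (agrin), the highest, had 413.6 CPM, Sdc3 (a syndecan) 256.2 CPM, Hspg2 (perlecan) 198.7 CPM and Ext2 (heparan sulfate polymerase) 147.6 CPM. Of 15 listed genes 11 were at 5 CPM or more, and past 2-fold there was none in the arterial and angiogenic comparisons and 1 higher in the venous one, the syndecan Sdc4, with 18.4 CPM against 7.87 CPM but higher on only 2 plates. Of all genes measured in the arterial, venous and angiogenic comparisons, 4.55%, 4.63% and 4.51% were past 2-fold higher, and 2.09%, 2.99% and 3.7% lower. In the arterial comparison the farthest from 0 was the sulfotransferase Ndst2, with 22.3 CPM against 44.6 CPM (log2 ratio −0.97, higher on 1 plate). The median log2 ratio of the 11 genes was −0.02, 0.10 and 0.21 in arterial-, venous- and angiogenic-marker cells, beside 0.01 for all genes in each.

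Further groups of secreted factors give the scale of the Pdgfa difference. In the related VEGF branch, Vegfc, a ligand of VEGFR3, had 55.9 CPM in arterial-marker cells against 0.380 CPM in cells with none (log2 ratio 5.36, 4.47 to 5.92 over plates), and 2 of 4 measured genes were past 2-fold higher, the other being Pgf. Of all genes measured in this comparison, 4.55% were past 2-fold higher and 2.09% lower. Among other endothelial signals to mural cells, Angpt2 and Apln were left out because the marker rule fixes their low level in the cells with none. Of 12 other genes that reached 5 CPM in either class, 5 were past 2-fold higher in arterial-marker cells and 0 lower, beside the same 4.55% and 2.09%. The farthest from 0 was Bmp6, a bone morphogenetic protein, with 82.7 CPM against 24.0 CPM, a log2 ratio of 1.74 (0.36 to 2.50 over plates). Of the most abundant, the chemokine gene Cxcl12 had 1862 CPM against 1719 CPM (log2 ratio 0.12) and Edn1 had 681.7 against 278.4 CPM, 1.29 pooled but 0.24 to 1.08 within plates. By size, the arterial difference of Pdgfa exceeded that of 98.7% of the genes measured there, while that of Pdgfb exceeded 50.3% and that of Pdgfd 55.0%.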

How the data were processed

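Single brain endothelial cells were sequenced by Smart-seq2. The authors deposited whole-number counts of reads per gene and cell. The submitters' processing notes name Subread 1.4.6-p5, featureCounts, SAMtools 0.1.18 and TopHat2 2.1.1, and the builds mm10 and GRCm38, and the sources used here do not give the treatment of strand. Every column was used, and none could be matched to a genotype or an animal, so the 1187 cells were 1 pooled sample with plate as batch and no test was made. No cell was filtered out and no doublet caller was run. Counts were summed over cells and scaled to CPM, log2 ratios had 1 CPM added, and shares were taken after thinning to 100000 reads, which lost 0 cells. Reads are not independent molecules, so the intervals of levels cover counting error only. Those of shares treat cells as independent, which cells of the same plate or animal are not. Cells of 1 plate share their preparation, and plate may coincide with genotype or animal. The ratio and thinning code was tested on simulated data. Gene positions, exon lengths and sequences are from GENCODE M21 (GRCm38), computed with Python 3.11.15, numpy 2.4.6, pandas 2.3.3 and scipy 1.17.1.

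The genes named are the 4 ligands and, from the gene lists, members with the highest level or the ratio farthest from 0; the receptors, Lrp1, Pdgfrl, Gpc1, Plau, Sdc4 and single marker genes were named after their values were seen, and for likeness the genes with the highest mean within-plate correlation. The members and lists were chosen with earlier results of these data known. Alternatives covered the marker threshold and pairs, scaling, the added CPM, depth, cells with markers of other types and each plate left out.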

Additional observations from a re-analysis of the deposited data

Results flagged for a closer look

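In 1 of 30 groups of 4 plates, 1 plate stood apart from the other 3 by Dixon's criterion, which chance alone exceeds in about 1 in 20 groups. This was the share of all cells with a Pdgfa read at 100000 reads per cell, 10.6% on plate 524, against 7.02%, 7.24% and 7.33% on plates 523, 522 and 521. The exact interval of plate 524 (7.39% to 14.5%) overlapped those of the other plates, and its Pdgfa level was also the highest, 17.1 CPM.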

How the results depend on the processing

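Of 197 values under an alternative, 192 moved by less than the standard deviation over the 4 plates and 5 by more, and no value past 2-fold changed direction. The log2 ratio of Pdgfa in arterial-marker cells, 2.08, was 3.01 where both Bmx and Hey1 were asked for, and in the split chosen after seeing the data 3.66 with Eln, Fbln5 or Mgp and 1.14 without. In the same split Pdgfd was at 0.85 with these genes, against 0.27 in all arterial-marker cells. Pdgfb in venous-marker cells was at −0.49 where both Nr2f2 and Il1r1 were asked for, against 0.03. The cause of these shifts was not tested. With each plate left out in turn, the ratio of Pdgfa was 1.82 to 2.30 in arterial-marker and 1.09 to 1.92 in venous-marker cells, but −0.74 to 0.39 in angiogenic-marker cells, where it was above 0 without plate 521 (0.04) or plate 522 (0.39). There it was past 2-fold lower with both markers (−1.34) and in cells of this class only (−1.52), each within the spread over plates. The Pdgfc level was 0.00644 to 0.290 CPM and rests on plate 521. No paired analysis was possible because the columns carry no genotype and no replicate number. At full depth the share of cells with a read was 9.60% for Pdgfa, against 8.09% thinned, and 0.421% for Pdgfc, against 0.168%.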
